A study of Mus musculus with 30 samples.

Results

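Wild-type (WT) macrophages pushed to the M1 state were compared directly with WT macrophages pushed to the M2 state, in 10 of the 30 libraries of a mouse series. The 5 WT M1 and 5 WT M2 libraries were taken by their titles, and the 5 WT M0 libraries served only as the level from which each state departed. The cells were bone marrow-derived macrophages, grown from the marrow of WT mice for 7 days with 15 or 20% L929-conditioned medium, the supernatant of a fibroblast line that secretes the macrophage growth factor CSF1. M1 cells received lipopolysaccharide (LPS), a bacterial cell wall component, at 20 ng/mL together with interferon (IFN)-γ at 20 ng/mL. M2 cells received interleukin (IL)-4 at 20 ng/mL, and M0 cells no stimulus. The length of stimulation and the strain, sex and age of the mice were not given in the sources used here. The other 15 libraries came from TRα1PV mice, which carry a mutant thyroid hormone receptor α1, in the same 3 states with 5 libraries each. PolyA RNA was sequenced and reads were counted per gene.

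As background, LPS signals through TLR4 to NF-κB and to the induction of type I interferon, and IFN-γ signals through JAK1 and JAK2. IL-4 signals through its receptor, JAK1 and JAK3 to STAT6. M1 and M2 are the names for the extremes these stimuli produce in culture: M1 cells make nitric oxide from arginine and inflammatory cytokines, and mouse M2 cells express arginase, the mannose receptor, chitinase-like proteins and resistin-like molecule α. The 2 stimuli are known to oppose each other at some genes.

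Between 31566000 and 36019000 reads per library fell in genes in WT M1, 23016000 to 34420000 in WT M2 and 28853000 to 39105000 in WT M0 (rounded to 5 digits). Mitochondrially encoded genes took 0.755 to 1.20% of these reads in M1, 1.80 to 3.83% in M2 and 0.921 to 4.56% in M0, where the highest value was that of WT M0 replicate 2. All 15 macrophage markers were tested and detected in the 3 groups: Adgre1, which encodes the F4/80 antigen, had 2435 ± 354 CPM (reads scaled to a common library size) in M1, 1346 ± 109 CPM in M2 and 1460.1 ± 178 CPM in M0 (mean ± SD, n = 5 each, as throughout). Spi1, the lineage factor PU.1, had 373 ± 34.1, 201 ± 6.9 and 209 ± 16.8 CPM in M1, M2 and M0. The summed CPM of the 15 markers was 16098 to 17888 in M1, 31216 to 33908 in M2 and 35706 to 41413 in M0, with 7 markers higher and 8 lower in M1 than in M2. The summed CPM of the 13 tested neutrophil and granulocyte-precursor markers was 258.1 to 322.9 in M1, 343.1 to 425.1 in M2 and 360.9 to 511.4 in M0, and that of 3 lymphocyte genes, led by the immunoglobulin gene Ighm, 0.883 to 1.75 in M1, 67.1 to 78.8 in M2 and 197.4 to 254.8 in M0. Elane was at 0 reads in M1. Dendritic cell markers went the other way, with a summed CPM of the 11 genes of 612 to 870 in M1, 59.7 to 79.8 in M2 and 27.97 to 68.6 in M0, and 6 higher and 2 lower in M1 than in M2 (2 and 1 with only the libraries of the groups compared, counting members tested in all 3 comparisons, and 1 lower with the 15 WT libraries alone). Bst2, which interferons also induce, made up most of that sum in M1, with 611 ± 99.2 CPM in M1, 49.5 ± 8 CPM in M2 and 45.1 ± 14.8 CPM in M0, and Siglech and Cd209a were at 0 reads in M1. The summed CPM was 130.1 to 167.8 in M1, 90.0 to 117 in M2 and 56.9 to 99.8 in M0 for 4 endothelial genes, and at most 9.92, 16.0 and 26.1 in the same order for 9 fibroblast genes and 0.932, 3.01 and 4.39 for 4 mast cell, basophil and eosinophil genes. The part of other cell types in the results was not tested. In such bulk samples fewer cells of a type and less RNA per cell cannot be told apart.

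Most genes differed between the 2 states. Of 15686 genes tested, 12313 (78.5%) were called between WT M1 and WT M2 by edgeR's quasi-likelihood test at a Benjamini-Hochberg adjusted p under 0.05, 6097 (38.9%) higher and 6216 (39.6%) lower in M1. With a change of at least 2-fold, 6701 (42.7%) were called, 3178 (20.3%) higher and 3523 (22.5%) lower in M1. The median size of the log2 fold change over all genes tested was 0.83, against a median SE of 0.13, and for 10542 genes (67.2%) the 5 M1 and the 5 M2 libraries did not overlap. With so many genes called, a call by itself says little of a gene list, so each list below is given by its direction, its size and its median beside these shares. The split between directions depended on the scaling: TMM factors were 0.802 to 0.849 in M1 and 1.05 to 1.08 in M2, and with library totals alone, chosen after seeing the data, the median log2 fold change of all genes was -0.38 against -0.02, and 34.4% against 49.5% of the called genes were higher in M1.

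The highest and lowest ratios included the textbook markers of the 2 states. Il12b, the p40 subunit of IL-12 and IL-23, had 325, 373, 364, 436 and 496 CPM in the 5 M1 libraries, 0.193, 0.116, 0.165, 0.15 and 0.0537 CPM in the M2 libraries and 0.255, 0, 0.221, 0.0442 and 0.307 CPM in the M0 libraries. The M1 libraries were apart from the others, the M2 and M0 libraries overlapped, and the log2 fold change of M1 over M2 was 11.51 ± 0.45 (adjusted p = 3.22e-20). Nos2, the inducible nitric oxide synthase, had 8659, 7194, 7096, 7418 and 7714 CPM in M1, 3.45, 3.75, 3.89, 3.93 and 3.73 CPM in M2 and 5.89, 0.408, 2.04, 1.99 and 3.77 CPM in M0. It was 2033-fold higher in M1 than in M2 (log2 10.99 ± 0.48, adjusted p = 3.49e-19), and the M2 and M0 libraries overlapped. Cxcl9, a chemokine for T cells, was higher by log2 11.03 ± 0.38 and Ccr7, the receptor that guides cells to lymph nodes, by log2 10.69 ± 0.35.

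Some M1 genes had no read at all in M2. Prm1, a sperm protamine gene, had 18, 15.4, 17.6, 19.6 and 14.7 CPM in M1 and 0 reads in the 5 M2 libraries, which makes it at least 945.5-fold higher in M1 at a floor of 3 reads over the group. Pcsk1, a prohormone convertase, was at least 738-fold higher on the same basis, and Ptgs2os, a transcript antisense to the prostaglandin synthase gene Ptgs2, at least 549-fold. The strand setting of the counting was not given in the sources used here, so reads of Ptgs2os and Ptgs2 may not have been told apart. Coch, which encodes cochlin, had 7926 reads in M1 and 3 in M2 (ratio 3146, 95% exact interval 1076 to 15259, counting error only).

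At the other end stood genes of the IL-4 response. Retnla, which encodes resistin-like molecule α, had 5.7, 8.05, 6.24, 6.96 and 8.61 CPM in M1, 11075, 10545, 8589, 9449.8 and 10548 CPM in M2 and 9.74, 21.9, 4.57, 5.26 and 6.17 CPM in M0. It was 1414-fold higher in M2 than in M1 (log2 of M1 over M2 -10.47 ± 0.38, adjusted p = 5.48e-21), and the M1 and M0 libraries overlapped. Mgl2, a lectin that binds galactose-type sugars, had 0.205, 0.224, 0.308, 0.318 and 0.474 CPM in M1, 537, 481, 389.7, 381 and 429 CPM in M2 and 4.53, 4.26, 3, 2.74 and 3.16 CPM in M0, so that each M1 library was below each M0 library and each M2 library above. Rnase2a, an eosinophil-type ribonuclease gene, differed by log2 -10.68 ± 0.23. Scn3a, a voltage-gated sodium channel subunit, had 0.215 ± 0.165 CPM in M1, 191 ± 28.5 CPM in M2 and 0.258 ± 0.217 CPM in M0 (log2 -9.81 ± 0.26). Tmem26, which encodes a membrane protein, had 0.338 ± 0.198, 295 ± 17.9 and 0.64 ± 0.324 CPM in M1, M2 and M0. Chil4, a chitinase-like gene close in sequence to Chil3, had 0 reads in M1 and 694 in M2, which makes it at least 194-fold lower in M1, and reads of the pair may be split between copies. Il31ra, a receptor chain for IL-31, had 2 reads in M1 and 2438 in M2 (ratio of M2 over M1 1024, 95% exact interval 283.1 to 8458).

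Setting both states against WT M0 divided these genes by which stimulus moved them, a gene counting as moved at an adjusted p under 0.05 and at least 2-fold. Both comparisons share the same 5 M0 libraries, so they are not independent. M1 moved 6774 genes (43.2%), 19.8% up and 23.4% down, and M2 2411 (15.4%), 6.99% up and 8.38% down. Without the minimum fold, 79.6% of genes tested were called between M1 and M0 (39.4% higher, 40.2% lower in M1) and 52.4% between M2 and M0 (25.2% higher, 27.2% lower in M2). A gene was placed as moved by 1 stimulus alone where the other did not move it and it was also called between M1 and M2 in the same direction. By this rule 2383 genes (15.2%) were raised and 2570 (16.4%) lowered by LPS with IFN-γ alone, and 385 (2.45%) were raised and 309 (1.97%) lowered by IL-4 alone. Another 284 genes were moved by 1 stimulus but not called between M1 and M2, and were put in none of these classes. The 2 stimuli together moved 446 genes up (2.84%) and 713 down (4.55%), and others in opposite directions, 232 up in M1 and down in M2 (1.48% of those tested) and 236 the other way (1.5%). Of the 6701 genes that differed at least 2-fold between the states, 2074 (31%) were raised and 2209 (33%) lowered in M1 alone, and the 2 opposite classes made up 3.46 and 3.52%. A further 8128 genes were moved at least 2-fold by neither stimulus, of which 5412 were still called between M1 and M2 and 789 differed at least 2-fold.

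**Figure D1:**
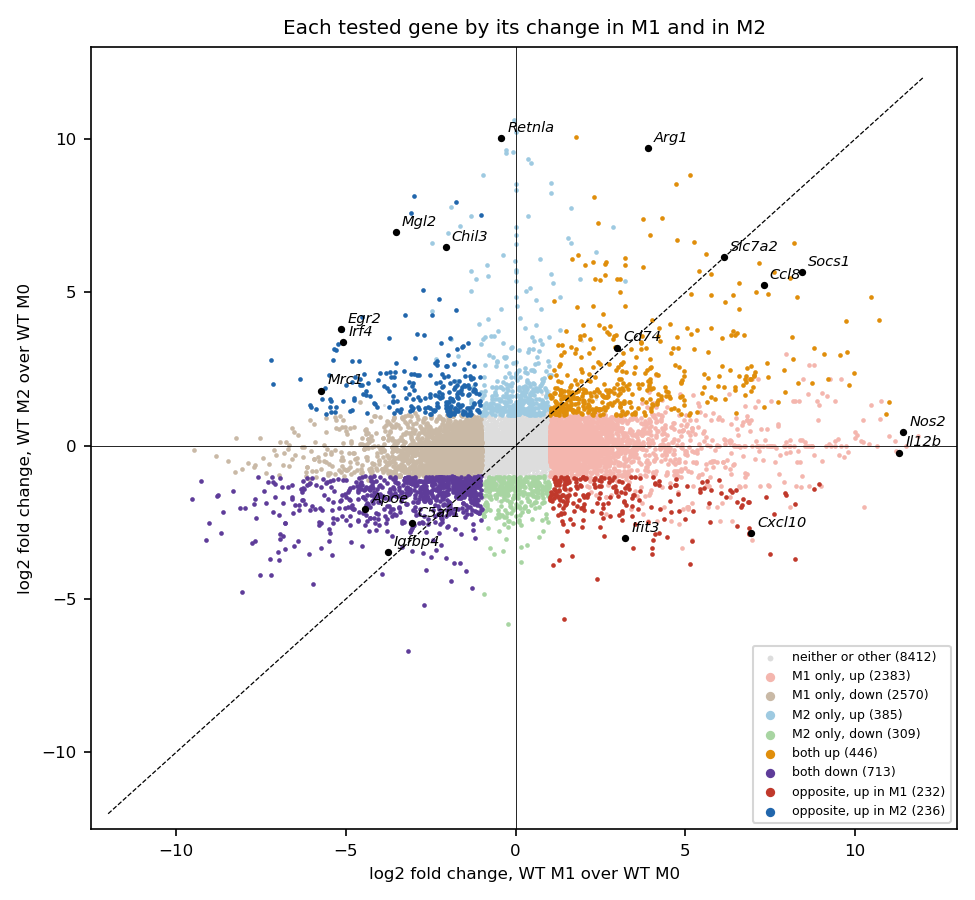
Each point is 1 of the 15686 genes tested, with its log2 fold change in WT M1 over WT M0 on the horizontal axis and in WT M2 over WT M0 on the vertical axis, coloured by class with the number of genes in the legend. The dashed line marks equal change in both states; Slc7a2 and Cd74 sit near it, Egr2 and Irf4 lie in the upper left part and Cxcl10 and Ifit3 in the lower right.

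Genes raised in M1 and lowered in M2 included chemokines, receptors and interferon-stimulated genes. Cxcl10, a chemokine induced by interferons, had 789.9, 1632, 1575, 1036 and 1754 CPM in M1, 1.52, 1.54, 1.86, 1.53 and 1.4 CPM in M2 and 12.8, 12.2, 13.7, 8.12 and 9.14 CPM in M0. Each M2 library was below each M0 library and each M1 library above, with log2 fold changes of 6.92 ± 0.27 for M1 over M0 (adjusted p = 2.53e-20) and -2.84 ± 0.28 for M2 over M0 (adjusted p = 4.68e-10). Ifit3, which binds viral RNA complexes together with other IFIT proteins, had 357, 382, 457, 333 and 489.6 CPM in M1, 5.52, 5.55, 6.41, 4.17 and 5.15 CPM in M2 and 59.4, 47.8, 45.4, 28.7 and 33.4 CPM in M0, again with no overlap between any 2 groups. It rose by log2 3.23 ± 0.27 in M1 and fell by 3.01 ± 0.29 on the log2 scale in M2. Cd38, an enzyme that consumes NAD, had 239, 263, 310.4, 283 and 261 CPM in M1, 0.11, 0.348, 0.455, 0.18 and 0.51 CPM in M2 and 2.41, 4.06, 1.67, 1.44 and 2.15 CPM in M0. Fpr1, the receptor for formylated bacterial peptides, had 7.82, 20.0, 17.4, 9.25 and 21.9 CPM in M1, 0.0276, 0.029, 0.0827, 0.12 and 0.161 CPM in M2 and 0.793, 1.12, 0.663, 0.31 and 0.614 CPM in M0. In both genes the 3 groups were separate. Saa3, an acute-phase protein, averaged 1428 ± 145 CPM in M1, 1.69 ± 0.492 CPM in M2 and 12.1 ± 10.4 CPM in M0, where 1 M0 library at 2.61 CPM lay close to the highest M2 library at 2.34 CPM. Trim30b and Ifi213, both members of interferon-induced families with near copies, were at log2 -2.68 ± 0.27 and -2.62 ± 0.37 in M2 over M0.

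The class as a whole had a median log2 fold change of 2.45 in M1 over M0 and -1.61 in M2 over M0. In 57 of its 232 genes the 5 M0 libraries held fewer than 50 reads together, and in 20 a group had at most 3 reads. Il23r, a receptor chain for IL-23, was one of these, with 979 reads in M1, 0 in M2 and 7 in M0, so its fall in M2 rests on 7 reads. Changes of at least 4-fold in each direction were found for 42 genes.

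All 36 tested type I interferon effectors were higher in M1 than in M2, by a median log2 of 4.48 (all genes tested -0.02), and 16 of the 36 fell in the opposite class, against 1.48% of all genes tested. Oasl1, an OAS-like antiviral protein, had 1808 ± 138 CPM in M1, 1.56 ± 0.279 CPM in M2 and 4.14 ± 1.73 CPM in M0 (M1 over M2 log2 10.19 ± 0.31). Rsad2, which encodes the antiviral enzyme viperin, had 7441 ± 1557, 18.9 ± 2.5 and 75.02 ± 14.4 CPM in M1, M2 and M0. It fell by 1.99 ± 0.23 on the log2 scale in M2, and Mx1, an antiviral GTPase, by 1.56 ± 0.19. The median log2 fold change of the 36 genes in M2 over M0 was -0.74. The 21 interferon-induced GTPases were also all higher in M1, by a median log2 of 5.50, but 3 of them were in the opposite class and 7 were raised by both stimuli. Gbp4 had 2139 ± 330.1 CPM in M1, 9.43 ± 0.445 CPM in M2 and 2.4 ± 0.766 CPM in M0, so IL-4 raised it by log2 1.99 ± 0.22, and Gbp2b by 2.38 ± 0.48. Iigp1, an immunity-related GTPase, instead fell by 1.59 ± 0.26 on the log2 scale in M2. The guanylate-binding, IFIT and H2-Q families hold near-identical copies, whose shared reads the counting could split.

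Promoter sequence was not used in forming the classes. In the 250 bases upstream of the RefSeq start sites (build GRCm38.p6), the interferon-stimulated response element motif (ISRE; TTTC, any 2 bases, TTTC), read on both strands, was present in 24 of the 164 genes raised in M1 and lowered in M2 that have a promoter in the table (14.6%). It was present in 4 of 170 genes of the reverse class (2.35%) and in 361 of 10440 genes tested (3.46%). Among genes raised in M1 alone the ISRE was present in 93 of 1581 (5.88%), and among those raised by both in 14 of 288 (4.86%). For the 2 opposite classes and all genes tested, in the order first given, the STAT6-type motif (TTC, any 4 bases, GAA) was found in 11 of 164 (6.71%), 13 of 170 (7.65%) and 612 of 10440 (5.86%). The NF-κB motif (GGGA, any base, TTTCC), which can overlap an ISRE at its TTTC, was found in 2 of 164 (1.22%), 2 of 170 (1.18%) and 55 of 10440 (0.527%). Its share was 1.75% in genes lowered by both stimuli (8 of 456) and 1.39% in those raised by both (4 of 288). Of the genes raised by both stimuli, 28 of 288 (9.72%) held the STAT6-type motif, the highest share among the classes looked at, and of those raised in M2 alone 16 of 266 (6.02%). These are matches of letters, counted with no test. The sequences below are from RefSeq, GRCm38.p6, 5′ to 3′ and ending 1 base before the start site, with each match in capitals. They show the ISRE at 2 genes moved in opposite directions (Cxcl10, chr5:92348890-92349139, minus strand; Ifit3, chr19:34583279-34583528, plus strand), and the STAT6-type motif at Retnla (chr16:48842359-48842608, plus strand) and Tmem26 (chr10:68723496-68723745, plus strand).
Cxcl10: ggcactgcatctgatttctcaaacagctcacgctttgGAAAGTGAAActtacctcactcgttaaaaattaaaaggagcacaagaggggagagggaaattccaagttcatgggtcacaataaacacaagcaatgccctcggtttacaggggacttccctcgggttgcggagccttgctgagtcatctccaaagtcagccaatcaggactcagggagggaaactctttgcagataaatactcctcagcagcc
Ifit3: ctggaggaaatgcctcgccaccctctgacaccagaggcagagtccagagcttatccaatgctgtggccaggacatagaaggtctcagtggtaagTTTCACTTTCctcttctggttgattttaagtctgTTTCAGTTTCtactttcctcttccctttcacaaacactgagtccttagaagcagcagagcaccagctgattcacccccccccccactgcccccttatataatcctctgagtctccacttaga
Retnla: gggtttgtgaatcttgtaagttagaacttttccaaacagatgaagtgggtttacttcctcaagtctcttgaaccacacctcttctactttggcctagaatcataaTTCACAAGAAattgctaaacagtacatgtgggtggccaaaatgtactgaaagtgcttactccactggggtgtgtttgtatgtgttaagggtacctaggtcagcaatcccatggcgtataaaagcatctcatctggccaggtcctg
Tmem26: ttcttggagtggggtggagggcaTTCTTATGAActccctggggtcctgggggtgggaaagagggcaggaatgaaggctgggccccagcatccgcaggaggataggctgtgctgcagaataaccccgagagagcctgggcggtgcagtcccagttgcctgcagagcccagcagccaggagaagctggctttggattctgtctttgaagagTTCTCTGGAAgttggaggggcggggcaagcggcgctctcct
The match lay 213 bases upstream of the start in Cxcl10, 156 and 122 in Ifit3, 145 in Retnla and 227 and 41 in Tmem26. Ifi213, raised in M1 and lowered in M2, also held a STAT6-type match, 249 bases upstream. No match to any of these 3 motifs was in these windows of Mgl2, Egr2 or Irf4, which says only that the letters are not there.

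**Figure D2:**
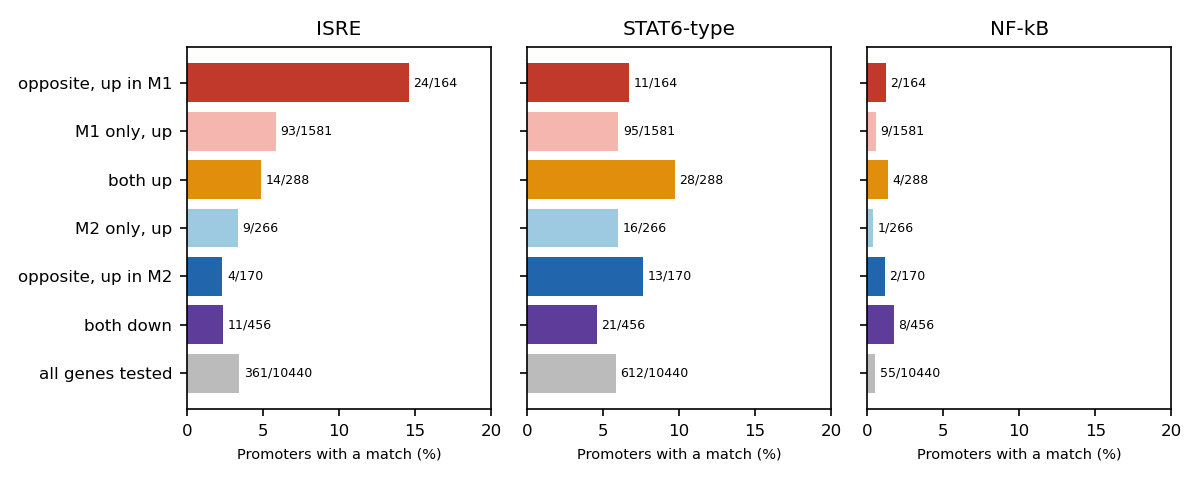
Bars give the share of genes with at least 1 match to each motif in the 250 bases upstream, by class, with the number of genes beside each bar and all genes tested at the bottom. The ISRE bar of the genes raised in M1 and lowered in M2, 24 of 164, is the longest.

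Genes raised in M2 and lowered in M1 included transcription factors of the IL-4 response. Egr2, a zinc-finger factor, had 0.239, 0.41, 0.274, 0.106 and 0.158 CPM in M1, 113, 121, 113, 122 and 118 CPM in M2 and 8.16, 9.72, 7.61, 7.92 and 9.05 CPM in M0. No 2 groups overlapped, and it fell by 5.14 ± 0.16 on the log2 scale in M1 (adjusted p = 6.03e-23) and rose by 3.79 ± 0.09 in M2 (adjusted p = 3.34e-24). Irf4, an interferon regulatory factor needed for M2 polarization in mice, had 0.41, 0.41, 0.171, 0.283 and 0.237 CPM in M1, 106, 114, 94.3, 123 and 104 CPM in M2 and 11.6, 11.99, 10.4, 8.6 and 9.54 CPM in M0, and was 354-fold higher in M2 than in M1. Chil3, the chitinase-like protein Ym1, averaged 5.45 ± 1.23 CPM in M1, 2019.7 ± 167 CPM in M2 and 22.8 ± 14.4 CPM in M0. Fn1, which encodes fibronectin, averaged 4.58 ± 0.734, 1720.1 ± 275 and 9.32 ± 3.83 CPM in M1, M2 and M0, and its fall in M1 was just past 2-fold (log2 -1.03 ± 0.26), with overlapping M1 and M0 libraries. The mannose receptor gene Mrc1 had 11.9 ± 3.22 CPM in M1, 2169.7 ± 83.2 CPM in M2 and 626 ± 114 CPM in M0, and the larger part of its log2 difference of -7.51 ± 0.18 between the states was its difference from M0 in M1 (log2 -5.72 ± 0.17), and that in M2 was 1.79 ± 0.14.

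Several genes of this class had almost no read in M1. Thrb, the thyroid hormone receptor β, had 0, 0, 0, 0 and 0.0395 CPM in M1, 3.67, 6.21, 3.56, 5.43 and 5.82 CPM in M2 and 0.397, 0.434, 0.393, 0.31 and 0.276 CPM in M0, with 1 read in M1 in all, 831 in M2 and 70 in M0. Il1rl1, the IL-33 receptor, had 2 reads in M1, 1089 in M2 and 141 in M0 (ratio of M2 over M1 457, 95% exact interval 126.3 to 3780). Slc36a2, an amino acid transporter, had 1, 743 and 47 reads in M1, M2 and M0. Sema6d, a semaphorin, had 0.05 ± 0.0595 CPM in M1, 20.0 ± 2.27 CPM in M2 and 2.01 ± 0.28 CPM in M0. Of the 236 genes, 37 had a group with at most 3 reads and 45 had fewer than 50 reads over the M0 libraries, and 58 changed at least 4-fold in each direction. The median log2 fold change of the class was -2.32 in M1 and 1.68 in M2 over M0.

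**Figure D3:**
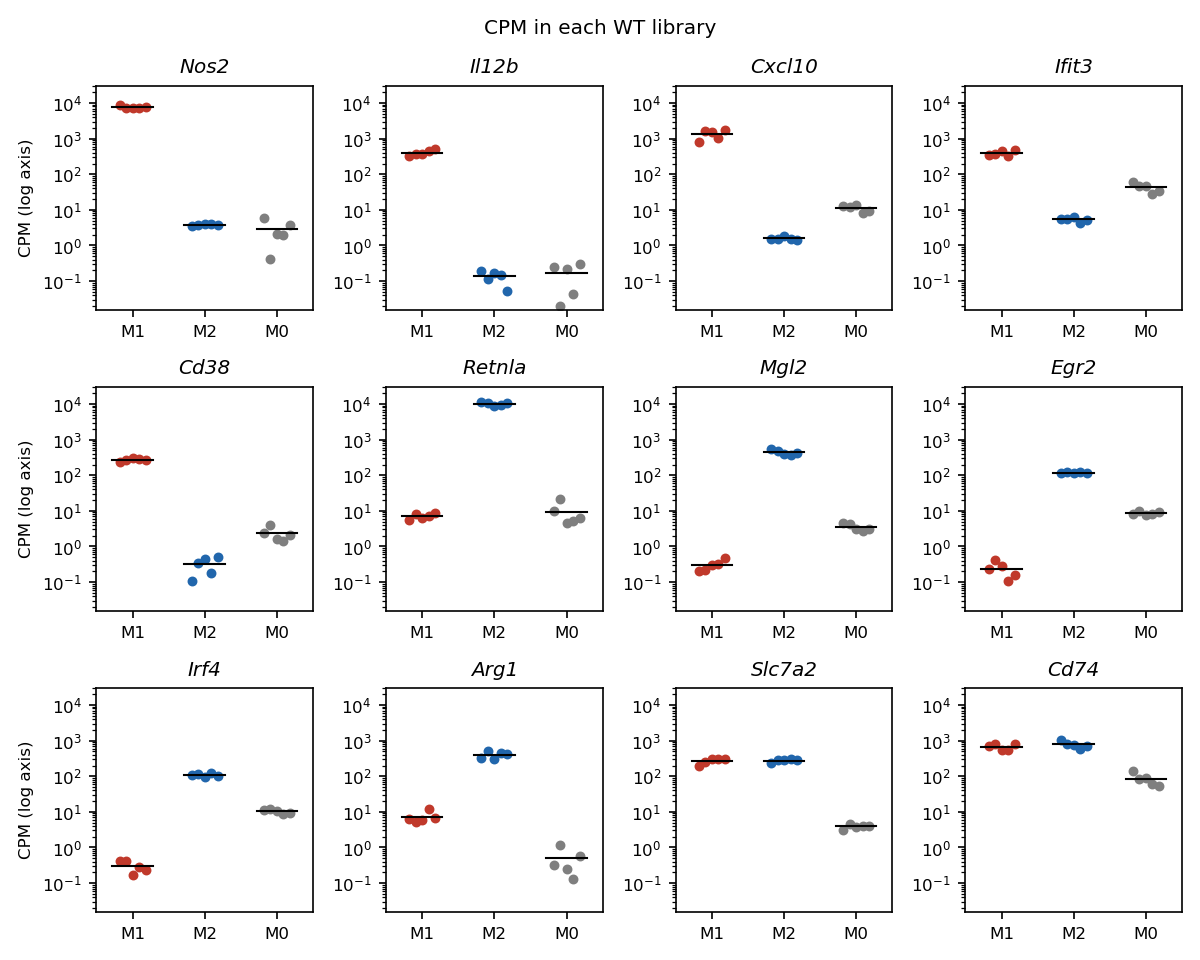
CPM in each of the 5 WT libraries per state (points) and their mean (line) for 12 genes, on a log axis, with a library at 0 drawn at 0.02. The top row and Cd38 are high in M1, Retnla, Mgl2, Egr2 and Irf4 are high in M2, Arg1 is above M0 in both states and higher in M2, and Slc7a2 and Cd74 are above M0 in both.

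Other genes moved in the same direction with both stimuli, a smaller part of them to about the same extent. Of the 446 genes raised by both, 254 were higher in M1, 70 higher in M2 and 122 not called, and for 127 the 95% interval of the log2 difference lay within 2-fold either way. Slc7a2, the transporter that brings arginine into macrophages, had 189.6, 248, 308, 303 and 313 CPM in M1, 232, 286, 278, 299.7 and 277 CPM in M2 and 3.03, 4.59, 3.83, 3.91 and 4.05 CPM in M0. The M1 and M2 libraries overlapped, and the interval of their log2 difference was -0.24 to 0.21. Tarm1, an activating receptor of myeloid cells, had 98.8 ± 6.73 CPM in M1, 89.4 ± 5.42 CPM in M2 and 1.81 ± 0.476 CPM in M0 (interval -0.09 to 0.38). Scd2, a stearoyl-CoA desaturase, rose by log2 3.73 ± 0.27 in M1 and 3.56 ± 0.27 in M2 (interval of the difference -0.32 to 0.67), and Flrt2, a cell adhesion protein, by 3.40 ± 0.16 and 3.15 ± 0.16. Of the 713 genes lowered by both, 45 were higher in M1, 417 higher in M2 and 251 not called, with 149 within 2-fold. C5ar1, the receptor for complement C5a, had 36.6, 56.2, 47.0, 42.9 and 49.8 CPM in M1, 78.6, 67.3, 69.8, 65.6 and 58.2 CPM in M2 and 442, 371, 378, 371 and 379.7 CPM in M0. All 10 stimulated libraries were below the M0 libraries, and each M1 library was below each M2 library. Itga6, an integrin chain, fell to 32.6 ± 2.97 CPM in M1 and 39.0 ± 1.84 CPM in M2, against 219.8 ± 21.0 CPM in M0, and Igfbp4, an IGF-binding protein, to 30.2 ± 6.56 CPM in M1 and 37.4 ± 3.17 CPM in M2, against 413 ± 35.0 CPM in M0.

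Arginine metabolism, the classic contrast of the 2 states, held several of these patterns. Arg1, which splits arginine to ornithine, had 6.25, 5.03, 6, 12.2 and 6.87 CPM in M1, 328, 498, 308, 454 and 429 CPM in M2 and 0.312, 1.2, 0.246, 0.133 and 0.583 CPM in M0. It was 55.4-fold higher in M2 than in M1 (log2 of M1 over M2 -5.79 ± 0.24, adjusted p = 1.22e-19), but it also rose in M1, by log2 3.90 ± 0.32 over M0, with no overlap between groups. Ass1, which rebuilds arginine from citrulline, rose in both, to 104 ± 7.63 CPM in M1 and 14.6 ± 2.83 CPM in M2, against 3.56 ± 0.669 CPM in M0. Srm, the spermidine synthase, was lower in M1 by 4.21 ± 0.20 on the log2 scale, and Azin1, an antizyme inhibitor, higher by 1.82 ± 0.14. Of the 21 tested genes of the list, 8 were higher and 9 lower in M1, with a median log2 of -0.01.

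Among secreted factors, 21 of 24 tested cytokines were higher in M1 and 2 lower, with a median log2 of 3.06. Tnf had 298 ± 84.6 CPM in M1, 5.27 ± 1.02 CPM in M2 and 11.2 ± 2.08 CPM in M0, and was in the opposite class (M1 over M2 log2 5.82 ± 0.20). Il27, a regulatory cytokine of the IL-12 family, differed by log2 6.70 ± 0.21 and Il1rn, the IL-1 receptor antagonist, by 6.63 ± 0.17. Lta, which encodes lymphotoxin α, had 0 reads in M2. Igf1, an insulin-like growth factor, was the most M2-sided cytokine of the list, with 36.0 ± 5.78 CPM in M1, 1481 ± 187 CPM in M2 and 612 ± 218 CPM in M0.

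The CC chemokines split by member. Ccl5, which attracts T cells, had 3707 ± 555 CPM in M1, 3.62 ± 0.799 CPM in M2 and 4.2 ± 1.88 CPM in M0. Ccl24, an eosinophil chemokine, had 12.4 ± 2.19, 182 ± 12.1 and 3.04 ± 0.26 CPM in M1, M2 and M0, Ccl17, a T-cell chemokine, averaged 0.00685, 0.747 and 0 CPM, and Ccl6 and Ccl9 were lower in M1 by 5.52 ± 0.15 and 3.01 ± 0.11 on the log2 scale. The monocyte chemokines Ccl2, Ccl7, Ccl8 and Ccl12 were higher in M1 than in M2, and all 4 also rose in M2 over M0. Ccl8 reached 20.2 ± 3.79 CPM in M1 and 4.84 ± 1.96 CPM in M2, against 0.129 ± 0.134 CPM in M0. Ccl22, often listed as an M2 gene, was raised by both and higher in M1, with 18.1 ± 5.62 CPM in M1, 6.48 ± 0.587 CPM in M2 and 0.208 ± 0.129 CPM in M0 (log2 1.48 ± 0.25, adjusted p = 3.26e-06). In all, 9 of 13 were higher and 4 lower in M1, and 6 were raised by both. Of 12 CXC chemokines, 5 were higher and 5 lower in M1 (3 and 3 with only the libraries of the groups compared, counting members tested in all 3 comparisons). Cxcl9 and Cxcl10, whose products bind CXCR3, and Cxcl11, annotated as a pseudogene in GENCODE, were higher by log2 9.77 to 11.54. In contrast, 6 others, among them the neutrophil chemokines Cxcl1 and Cxcl2, were below M0 in both states. Cxcl1 was low already in M0, at 2.02 CPM in WT M0 replicate 2 and 0.737 to 0.92 CPM in the other M0 libraries.

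Receptors and ligands on the cell surface moved apart as well. Of the 17 chemoattractant receptors 9 were higher and 6 lower in M1, with Fpr2, a formyl peptide receptor, at log2 8.67 ± 0.36 and Cxcr4, the receptor of Cxcl12, at -3.56 ± 0.16. Among Fcγ and complement receptors, Fcgr1, the high-affinity IgG receptor, had 892 ± 102 CPM in M1, 37.3 ± 4.51 CPM in M2 and 136 ± 16.1 CPM in M0, and the inhibitory receptor Fcgr2b had 94.3 ± 13.3, 761 ± 48.7 and 326 ± 68.3 CPM. Itgax, the integrin chain CD11c, was the most M2-sided of the 11, at log2 -4.51 ± 0.22. Itgam and Itgb2, the chains of complement receptor CR3 (log2 0.36 ± 0.11 and 0.31 ± 0.08), changed sign with library totals alone, to -0.0091 and -0.057. Of 27 C-type lectins and scavenger receptors 10 were higher and 15 lower in M1: Marco, a scavenger receptor, and Clec4e, the receptor Mincle, were higher by log2 5.99 ± 0.41 and 5.05 ± 0.28, and Clec10a, Cd163 and Clec4a2 were lower by 7.38 ± 0.16, 6.98 ± 0.38 and 4.93 ± 0.12 on the log2 scale.

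Costimulatory and antigen-presentation genes leaned to M1 by the number of genes, with exceptions. Of 20 costimulatory and coinhibitory ligands 14 were higher and 5 lower in M1. The 2 ligands of PD-1 differed in direction: Cd274, which encodes PD-L1, had 6172, 6695, 6984, 6595 and 6496 CPM in M1, 242, 261, 285, 275 and 273 CPM in M2 and 88.3, 91.8, 94.2, 89.6 and 97.9 CPM in M0, and Pdcd1lg2, which encodes PD-L2, had 6.63, 6.56, 6.92, 6.29 and 6.2 CPM in M1, 85.8, 87.4, 87.1, 68.8 and 87.8 CPM in M2 and 0.142, 0.204, 0.295, 0.133 and 0.123 CPM in M0. Both rose in each state, and M1 over M2 was log2 4.62 ± 0.13 for the first and -3.68 ± 0.12 for the second, with no overlap between M1 and M2 libraries. Of 22 MHC class I and immunoproteasome genes 18 were higher in M1, such as the peptide transporter Tap1 (log2 3.81 ± 0.11), and 2 lower (4 lower with library totals alone).

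Of 14 MHC class II genes 6 were raised by both stimuli, 9 were higher and 2 lower in M1 (4 lower with library totals alone), and the median log2 was 0.58. Their summed CPM went the other way, with 4835 to 5574 in M1, 5774 to 6771 in M2 and 2637 to 3274 in M0. Cd74, the invariant chain, had 693, 792, 559, 543 and 812 CPM in M1, 1072, 817, 734, 598 and 699.6 CPM in M2 and 143, 83.1, 89.0, 62.0 and 51.8 CPM in M0. The M1 and M2 libraries overlapped (interval of the log2 difference -0.73 to 0.32). Ciita, the class II transactivator, had 22.6 ± 3.04 CPM in M1, 16.6 ± 4.86 CPM in M2 and 2.61 ± 0.723 CPM in M0, and its difference between M1 and M2 did not pass the test (adjusted p = 0.0813, interval -0.03 to 0.92). H2-Ab1 and H2-Eb1, class II β chains, were higher in M1 by log2 2.14 ± 0.29 and 2.15 ± 0.33.

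The signalling genes of IL-4 did not all follow that stimulus. In the IL-4 receptor and STAT6 list, 12 of 21 were higher and 9 lower in M1. Il13ra1, a receptor chain shared by IL-4 and IL-13, had 80.7 ± 11.8 CPM in M1, 1.72 ± 0.365 CPM in M2 and 9.23 ± 2.63 CPM in M0, and fell in M2 by 2.42 ± 0.19 on the log2 scale. Irs2, an insulin receptor substrate, Myc and Pparg, a nuclear receptor for fatty acids, were lower in M1, by 3.73 ± 0.10, 4.52 ± 0.19 and 3.61 ± 0.11 on the log2 scale.

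The SOCS genes, feedback inhibitors of cytokine receptors, were 4 higher and 4 lower in M1. Socs1 had 251, 243, 167, 201 and 242 CPM in M1, 33.7, 34.7, 34.9, 22.2 and 37.2 CPM in M2 and 1.16, 0.434, 0.589, 0.575 and 0.46 CPM in M0. It rose by log2 8.42 ± 0.21 in M1 and 5.66 ± 0.20 in M2, with all 3 groups separate. Cish rose in both with the reverse order, to 15.7 ± 2.98 CPM in M1 and 81.7 ± 4.99 CPM in M2, against 1.88 ± 0.405 CPM in M0. Socs3 rose in M1 (log2 5.79 ± 0.19) and Socs2 in M2 (3.57 ± 0.17). Of 40 TLR and NF-κB genes 30 were higher and 7 lower in M1, with the inhibitors Nfkbia and Tnfaip3 at log2 2.81 ± 0.08 and 2.74 ± 0.07 and the RNA sensor Tlr8 at -3.78 ± 0.26. Among 25 macrophage transcription factors 8 were higher and 14 lower in M1: Cebpb was higher (log2 3.05 ± 0.11), and Tfec and Cebpa were lower by 3.91 ± 0.10 and 2.70 ± 0.13 on the log2 scale.

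**Figure D4:**
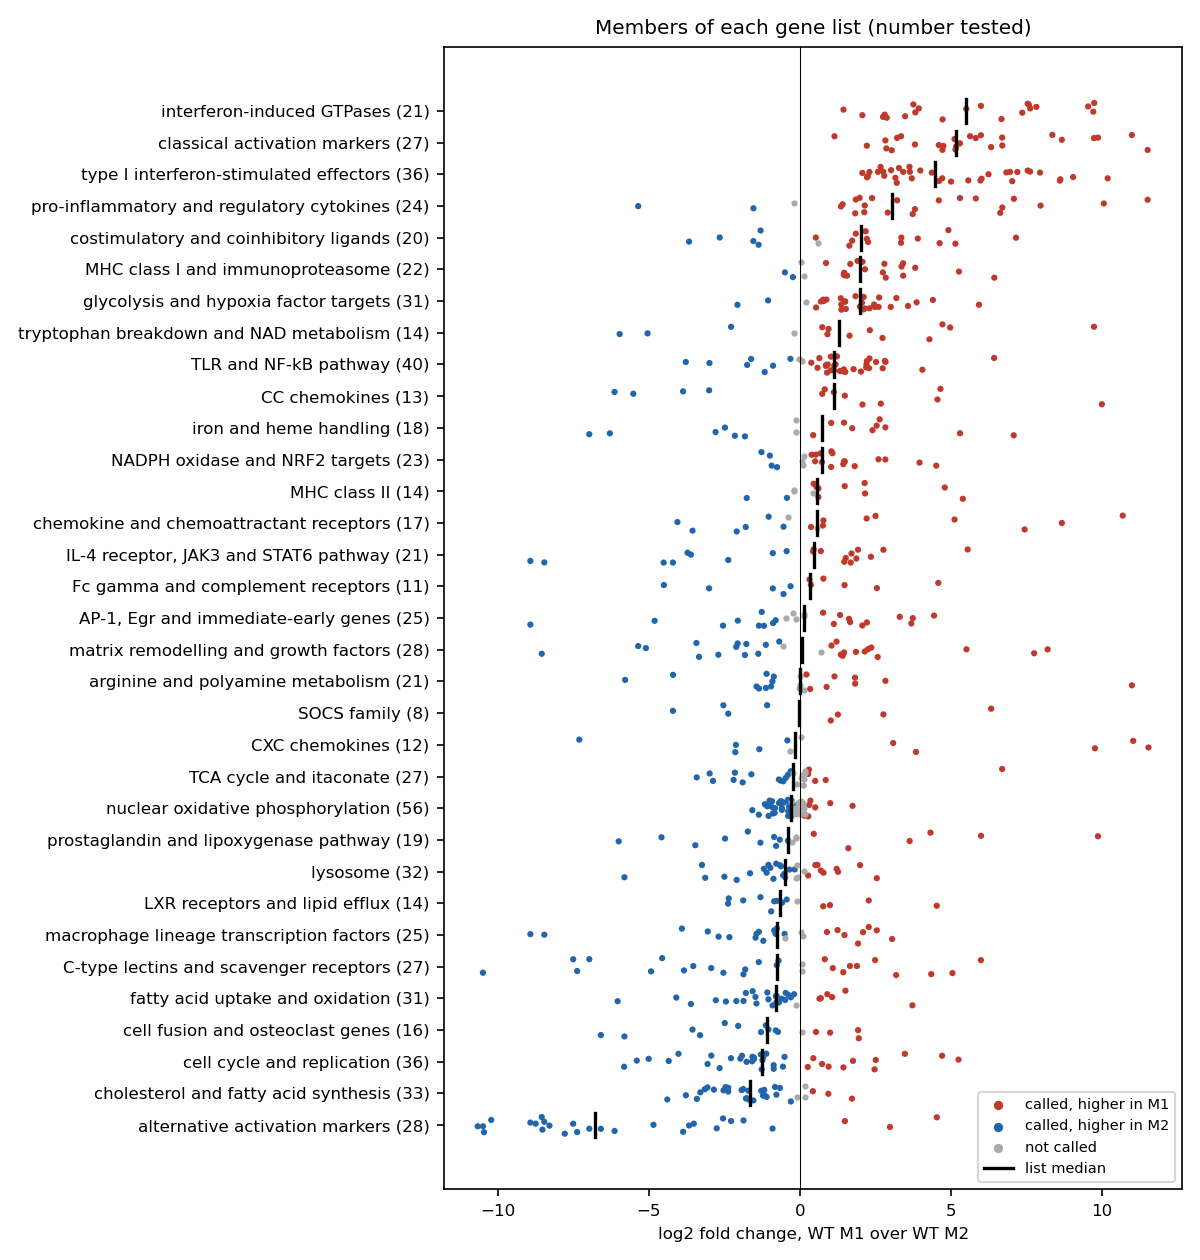
Each point is a tested member of a gene list with its log2 fold change of WT M1 over WT M2, red where called higher in M1, blue where called higher in M2 and grey where not called; black bars are list medians, ordered from the highest at the top. Interferon-induced GTPases (median 5.50) stand at one end and alternative activation markers (median -6.79) at the other.

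Metabolic lists leaned in both directions. Of 31 glycolysis and hypoxia-factor targets, 28 were higher in M1 and 2 lower, with a median log2 of 1.98. Pfkfb3, which makes an activator of glycolysis, had 389.8 ± 49.7 CPM in M1, 26.8 ± 0.597 CPM in M2 and 42.4 ± 2.72 CPM in M0, the lactate exporter Slc16a3 370.2 ± 29.9, 31.0 ± 1.17 and 34.4 ± 6.4 CPM, and the glucose transporter Slc2a1 182 ± 33.6, 29.9 ± 1.01 and 15.8 ± 1.4 CPM. Cholesterol and fatty acid synthesis ran the other way, with 3 of 33 higher and 27 lower in M1 and a median log2 of -1.66. Of these 33 members, 16 were raised in M2 alone and 5 were raised in M2 and lowered in M1, against 2.45 and 1.5% of all genes tested. Fasn, the fatty acid synthase, had 4, 4.73, 3.25, 3.71 and 4.26 CPM in M1, 72.5, 95.2, 90.7, 62.6 and 98.9 CPM in M2 and 34.4, 27.7, 36.1, 40.4 and 31.5 CPM in M0, with no overlap between groups. Idi1 and Cyp51, of the cholesterol pathway, rose in M2 over M0 by log2 2.58 ± 0.20 and 2.23 ± 0.14.

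The list of the tricarboxylic acid cycle and itaconate had more members lower than higher in M1. Acod1, which draws off cis-aconitate to make itaconate, had 5274 ± 1009.8 CPM in M1, 51.0 ± 14.3 CPM in M2 and 12.4 ± 3.84 CPM in M0, and rose in both states. Idh1 and Idh2, isocitrate dehydrogenases outside and inside mitochondria, fell in M1 over M0 by 3.00 ± 0.07 and 2.99 ± 0.09 on the log2 scale, and stood at log2 0.42 ± 0.06 and 0.00 ± 0.08 in M2. In the list 5 of 27 genes were higher and 13 lower in M1 (2 and 21 with library totals alone), with a median log2 of -0.22. Against M0 the median log2 of the list was 0.47 in M1 and 0.63 in M2. Of 56 nuclear genes of oxidative phosphorylation, 7 were higher and 32 lower in M1 (2 higher with library totals alone), with a median log2 of -0.30 and 38 moved at least 2-fold by neither stimulus. Cycs, which encodes cytochrome c, was the exception with the largest change, higher in M1 by log2 1.74 ± 0.09. Against M0 the median log2 of the 56 genes was above 0 in both states, 0.40 in M1 and 0.71 in M2. Of them, 8 were raised in M2 alone, 5 by both stimuli and 3 in M1 alone, and 0 were lowered in M1 alone. These classes held 2.45, 2.84, 15.2 and 16.4% of all genes tested, in the same order. The share of mitochondrially encoded reads was also lower in M1 than in M2, as given above, and its part in these lists was not tested. In fatty acid uptake and oxidation 6 of 31 were higher and 24 lower in M1, among the lower ones Fabp4, a lipid chaperone (log2 -4.10 ± 0.18), and Cd36, a fatty acid and scavenger receptor (-1.87 ± 0.16).

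Apoe and Abca1, genes of lipid efflux, were lower in both stimulated states than in M0. Apoe, which encodes apolipoprotein E, had 276, 199, 252, 253 and 279 CPM in M1, 1142, 1191, 1279, 1555 and 1299 CPM in M2 and 5337, 5251, 4981, 6361 and 5269 CPM in M0. Abca1, a cholesterol exporter, had 69.7 ± 13.2, 257 ± 14.3 and 797 ± 35.9 CPM in M1, M2 and M0. All M1 and M2 libraries of both genes were below the M0 libraries, and M1 was below M2. Of 14 members 4 were higher and 9 lower in M1, and 5 were lowered by both. Ch25h, which makes 25-hydroxycholesterol, was higher in M1 by log2 4.53 ± 0.34, at low levels of 3.27 CPM in M1 and 0.134 CPM in M2.

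Lipid mediators, tryptophan and iron each had members on both sides. Ptgs2, the inducible prostaglandin synthase, had 3810.2 ± 414 CPM in M1, 4.08 ± 0.645 CPM in M2 and 2.25 ± 0.598 CPM in M0, and its constitutive partner Ptgs1 4.42 ± 1.26, 284 ± 17.4 and 131 ± 4.64 CPM. Ptges, the next enzyme toward prostaglandin E, was higher in M1 by log2 5.99 ± 0.20, while in the whole list of 19 genes 6 were higher and 10 lower. In the tryptophan and NAD list, 10 of 14 were higher in M1 and 3 lower. Kynu, a kynureninase, rose in both, to 89.2 ± 13.4 CPM in M1 and 13.4 ± 1.6 CPM in M2, against 1.1 ± 0.296 CPM in M0, and Il4i1, a secreted amino acid oxidase, rose in both with M2 the higher (11.1 ± 1.64, 54.0 ± 6.65 and 2.27 ± 0.331 CPM in M1, M2 and M0). Kmo, kynurenine monooxygenase, was lower in M1 by 5.97 ± 0.27 on the log2 scale. For iron, Tfrc, the transferrin receptor, had 15.3, 19.5, 21.6, 16.3 and 20.9 CPM in M1, 1441, 1526, 1420.2, 1801 and 1171 CPM in M2 and 88.3, 149, 124, 101 and 143 CPM in M0, with M1 below and M2 above M0. Fth1, the ferritin heavy chain, was higher in M1 by log2 2.54 ± 0.08, and the iron exporter Slc40a1 was lower by 2.80 ± 0.13 on the log2 scale.

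Most cell cycle genes were lower in M1 than in M2. Of 36 tested, 25 were lower and 11 higher in M1, with a median log2 of -1.26. Against M0 the median log2 of the list was -0.05 in M1 and 1.03 in M2. In M2 alone 9 members were raised, in M1 alone 5 were raised and 4 lowered, and 4 were raised by both. These classes held 2.45, 15.2, 16.4 and 2.84% of all genes tested, in the same order. Another 7 members were in the class raised in M2 and lowered in M1, against 1.5% of all genes tested. Ccna2, cyclin A2, had 0.444, 0.373, 0.48, 0.353 and 0.237 CPM in M1, 23.7, 17.9, 13.4, 12.4 and 13.9 CPM in M2 and 6.68, 2.48, 1.91, 2.12 and 3.01 CPM in M0. Ccnb2, a mitotic cyclin, and Rrm2, a subunit of ribonucleotide reductase, were lower in M1 than in M2 by 5.83 ± 0.49 and 4.35 ± 0.26 on the log2 scale. The named G1 cyclins were higher in M1: Ccnd2 had 263 ± 65.0 CPM in M1, 6.88 ± 0.875 CPM in M2 and 3.87 ± 1.14 CPM in M0, Ccne1 129 ± 13.5, 4.92 ± 0.757 and 1.24 ± 0.228 CPM, and Ccnd1 616 ± 50.6, 55.5 ± 9.59 and 19.8 ± 6.46 CPM.

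Of 16 cell fusion genes 11 were lower and 4 higher in M1. Cdh1, the E-cadherin that M2 cells use in fusion, and Dcstamp, a fusion protein of giant cells, were lower in M1 by 6.60 ± 0.41 and 3.31 ± 0.25 on the log2 scale. Ocstamp, a related fusion gene, was raised by both stimuli and higher in M1 (17.7 ± 3.62, 4.67 ± 1.12 and 0.0876 ± 0.0796 CPM in M1, M2 and M0). Atp6v0d2, a subunit of the vacuolar proton pump, had 15.2 ± 3.87 CPM in M1, 859.7 ± 109 CPM in M2 and 119 ± 19.1 CPM in M0. Of the 32 lysosomal genes 9 were higher and 19 lower in M1, with the cathepsins split, as Ctsh was higher (log2 2.54 ± 0.05) and Ctsl lower (-1.65 ± 0.11). In the matrix list 13 were higher and 13 lower: Mmp14, a membrane-bound metalloproteinase, was higher in M1 by log2 5.51 ± 0.21, and Timp2 and F13a1, coagulation factor XIII, lower by 5.11 ± 0.12 and 3.43 ± 0.13 on the log2 scale. In F13a1 both states were below M0 (4.15 ± 0.701 CPM in M1, 44.9 ± 10.2 CPM in M2 and 461 ± 38.9 CPM in M0).

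The 2 lists of activation markers were written from knowledge of these states and so are no independent evidence of their direction. All 27 classical markers were higher in M1 (median log2 5.17). Of 28 alternative markers 25 were lower in M1 (median log2 -6.79) and 3 were higher, Ccl22, Ch25h and Tgm2, a transglutaminase named after its value was seen. Of the 28, 8 were raised by both stimuli, 8 were raised in M2 and lowered in M1, and 9 were raised in M2 alone.

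**Figure D5:**
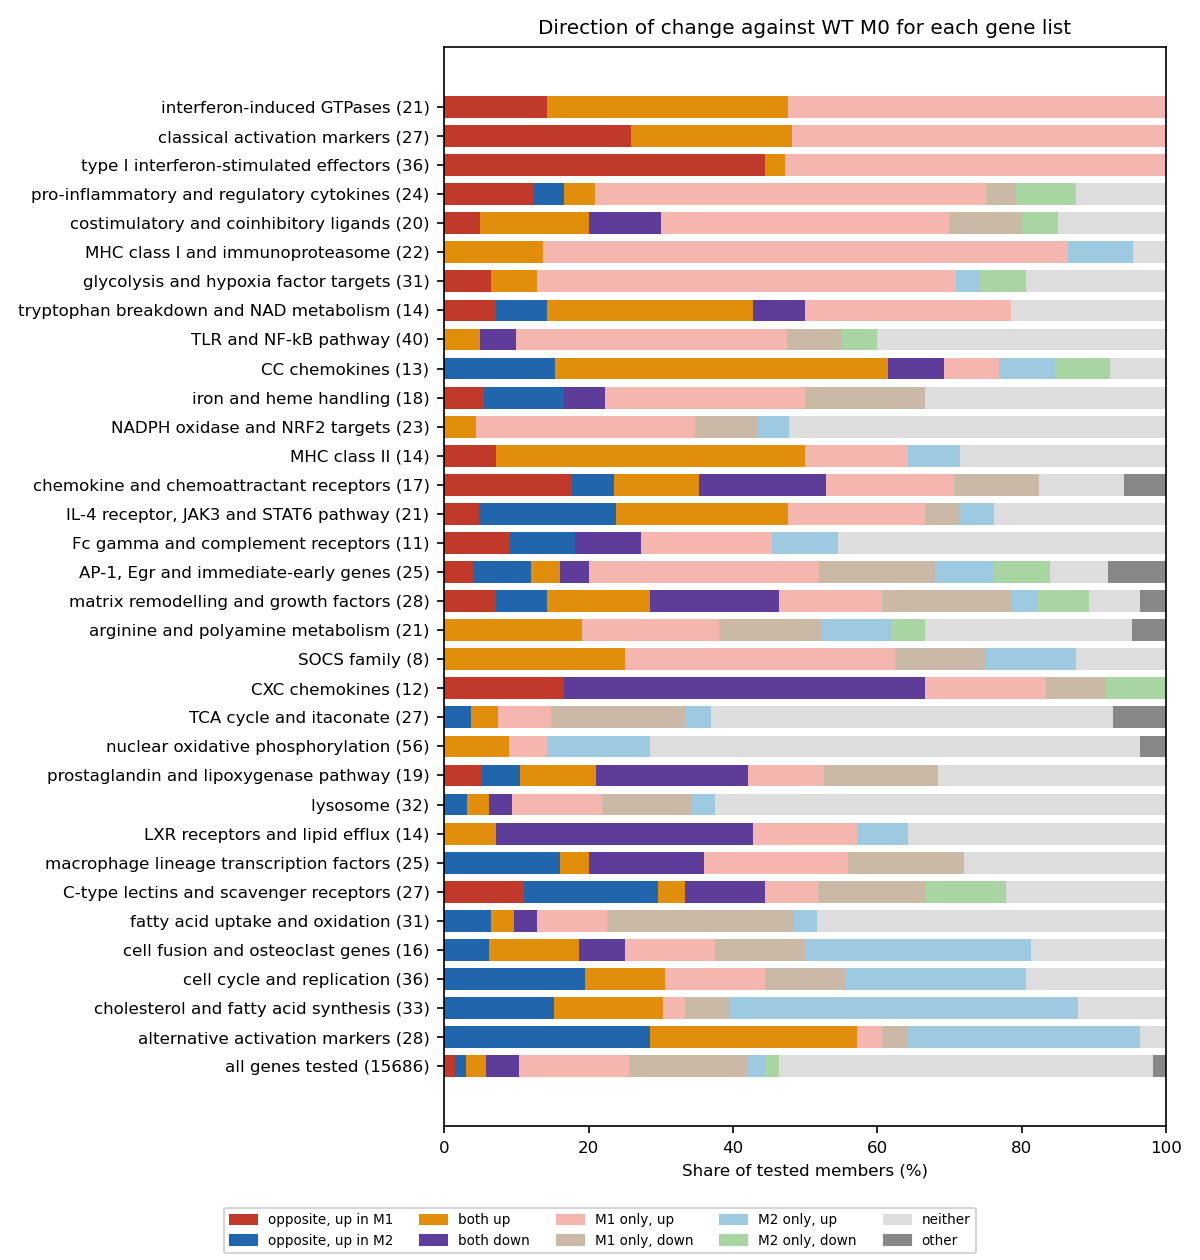
Each bar divides the tested members of a gene list (number in brackets) by their change against WT M0, with all 15686 genes tested at the bottom. Red marks genes raised in M1 and lowered in M2, as in type I interferon effectors (16 of 36, with 19 raised in M1 alone). Blue marks the reverse class. Orange marks genes raised by both, as in CC chemokines (6 of 13), and purple genes lowered by both, as in CXC chemokines (6 of 12).

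The classes were looked up in the TRα1PV libraries, which are separate samples with their own M0 but entered the same fit. Of the 232 WT genes raised in M1 and lowered in M2, 158 (68.1%) were in the same class there. They were 40.1% of the 394 TRα1PV genes of that class, among 15686 tested. Of the 236 genes of the reverse class 173 (73.3%) were in it, 65.3% of 265. The shares were 67.9% of the 446 genes raised by both and 75.2% of the 713 lowered by both, classes that held 446 and 722 genes in TRα1PV. Among genes moved by 1 stimulus, the share ran from 55% (M2 alone, down) to 79.4% (M1 alone, down).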

How the data were processed

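PolyA RNA of mouse bone marrow-derived macrophages was sequenced (KAPA mRNA HyperPrep, per the labels' protocols). The authors deposited raw read counts per gene, 1 table per library. Trimmomatic 0.39, HISAT2 2.2.1, HTSeq 1.99.2 and build GRCm39 are named, per the submitters' processing notes. These sources state neither the annotation release nor the strand setting. HTSeq's summary lines, which name no gene, held 22.1 to 27.9% of the WT libraries' records and stayed out of library sizes and tests.

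All 30 libraries entered 1 edgeR 4.0.16 quasi-likelihood fit (R 4.3.3) with 6 group means, TMM factors and a filter of at least 10 counts (15 in total), which left 15686 genes and 24 residual degrees of freedom. P-values were adjusted by Benjamini-Hochberg over all genes tested, at a threshold of 0.05. CPM values use TMM-scaled library sizes, are not divided by gene length and are compared only within a gene. Log2 fold changes are given ± SE. Read totals of 0 were replaced by a floor of 3 over the group, and ratios with 1 to 3 reads have 95% exact intervals, for counting error only.

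Named genes were the 10 highest and 10 lowest ratios among called genes averaging at least 0 on the log2 CPM scale over all libraries, predicted models and genes annotated as pseudogenes in GENCODE left out (among them Gm49087 and Cxcl11), the leading genes of each class, and the 8 with the largest change in each list (every member of lists of at most 15 tested genes); some of these are not reported here. The members and the lists were chosen with earlier results of these data known. Promoters and neighbouring genes came from RefSeq, GRCm38.p6, another build than that of the counts.

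The replicate numbers stand under a label for batch. Same-numbered M1 and M2 libraries correlated at -0.05 to 0.30 in their deviations from the group means, 4 of 5 above 0.1. Differently numbered ones ran from -0.45 to 0.56, with a mean of -0.04. The highest value of all was that of M1 replicate 3 with M2 replicate 4, so these values do not settle whether the numbers mark pairs. The labels name biological replicates but not separate mice, so p-values measure the spread between these libraries. Pairs of libraries within a group all differed beyond counting error, with chi-square values of 6.69 to 207 for each degree of freedom. Tested on simulated data for M1 against M2, with 200 of 15686 genes changed, as many up as down, the fit recovered 187 of them. How the recovery depends on the size of a gene's change was not tested. Most genes were called in the real comparison, so this recovery does not test the scaling there.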

Additional observations from a re-analysis of the deposited data

Results flagged for a closer look

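In a group of 5 libraries a library was marked when its gap to the nearest other exceeded 0.71 of the group's range (Dixon's 95% value), which chance does in about 1 of 20 groups. Of 467 groups of values looked at, 39 (8.35%) were marked, and each is given with its gap as a share of the range. Where all other libraries of a group were at 0, any read gave a gap of 1. The 1 of 20 does not hold for such groups, and their marks say nothing of the library. WT M1 replicate 1 stood above the other M1 libraries in Saa3 (1680 CPM against 1300 to 1400 CPM, gap 0.734). WT M1 replicate 2 stood above the other M1 libraries in Ccnb2 (0.373 CPM against 0.0683 to 0.106 CPM, gap 0.876) and Slc36a2 (0.0373 CPM against 0 to 0 CPM, gap 1). WT M1 replicate 3 stood above the other M1 libraries in Ccl17 (0.0343 CPM against 0 to 0 CPM, gap 1), Cd163 (0.137 CPM against 0 to 0.0373 CPM, gap 0.728) and Cxcl9 (5080 CPM against 4270 to 4460 CPM, gap 0.762). WT M1 replicate 4 stood above the other M1 libraries in Arg1 (12.2 CPM against 5.03 to 6.87 CPM, gap 0.743). WT M1 replicate 5 stood above the other M1 libraries in Il1rl1 (0.079 CPM against 0 to 0 CPM, gap 1) and Thrb (0.0395 CPM against 0 to 0 CPM, gap 1). WT M1 replicate 1 stood below the other M1 libraries in Mx1 (2020 CPM against 2630 to 2760 CPM, gap 0.824). WT M2 replicate 1 stood above the other M2 libraries in Abca1 (282 CPM against 247 to 253 CPM, gap 0.825), Scn3a (241 CPM against 172 to 188 CPM, gap 0.768) and Tnp2 (0.0552 CPM against 0 to 0 CPM, gap 1). WT M2 replicate 2 stood above the other M2 libraries in Ccl17 (1.22 CPM against 0.58 to 0.662 CPM, gap 0.872) and Pparg (78.1 CPM against 71.9 to 73.6 CPM, gap 0.716). WT M2 replicate 1 stood below the other M2 libraries in Ctsh (400 CPM against 428 to 438 CPM, gap 0.738). WT M2 replicate 4 stood below the other M2 libraries in Cebpa (152 CPM against 181 to 186 CPM, gap 0.845), Pdcd1lg2 (68.8 CPM against 85.8 to 87.8 CPM, gap 0.895) and Socs1 (22.2 CPM against 33.7 to 37.2 CPM, gap 0.764). WT M0 replicate 1 stood above the other M0 libraries in C5ar1 (442 CPM against 371 to 380 CPM, gap 0.873), Ccna2 (6.68 CPM against 1.91 to 3.01 CPM, gap 0.771), Ccnb2 (4.48 CPM against 1.13 to 1.72 CPM, gap 0.824), Ctsl (1590 CPM against 1130 to 1240 CPM, gap 0.759), Itgax (27.9 CPM against 10.4 to 14.2 CPM, gap 0.783), Rrm2 (4.33 CPM against 1.92 to 2.3 CPM, gap 0.845) and Socs1 (1.16 CPM against 0.434 to 0.589 CPM, gap 0.786). WT M0 replicate 2 stood above the other M0 libraries in Cxcl1 (2.02 CPM against 0.737 to 0.92 CPM, gap 0.856), Il1rl1 (1.07 CPM against 0.595 to 0.708 CPM, gap 0.763) and Siglech (0.944 CPM against 0.307 to 0.464 CPM, gap 0.753). WT M0 replicate 3 stood above the other M0 libraries in Pcsk1 (0.123 CPM against 0 to 0.0307 CPM, gap 0.75). WT M0 replicate 4 stood above the other M0 libraries in Apoe (6360 CPM against 4980 to 5340 CPM, gap 0.742) and Ptgs1 (139 CPM against 127 to 130 CPM, gap 0.752). WT M0 replicate 1 stood below the other M0 libraries in Timp2 (285 CPM against 325 to 339 CPM, gap 0.747). WT M0 replicate 2 stood below the other M0 libraries in Cebpa (89.6 CPM against 139 to 147 CPM, gap 0.851). WT M0 replicate 4 stood below the other M0 libraries in Clec4a2 (65.6 CPM against 81.2 to 85.6 CPM, gap 0.781). WT M1 replicate 5 had 19490 genes detected against 19920 to 20060 in its group (gap 0.746). WT M2 replicate 3 had 23020000 reads in genes against 31620000 to 34420000 in its group (gap 0.754). WT M2 replicate 4 had 9.06 percent of reads in no gene against 7.68 to 7.98 in its group (gap 0.779). WT M2 replicate 3 had 19240 genes detected against 20140 to 20380 in its group (gap 0.787).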

How the results depend on the processing

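With at least 2-fold, 6701 genes were called between M1 and M2 (3178 higher, 3523 lower in M1), 6774 between M1 and M0 (3108 and 3666) and 2411 between M2 and M0 (1097 and 1314). With no minimum fold, 1254 genes were up in M1 and down in M2, 1202 the reverse, 2047 up and 2359 down in both (1221 and 1113 with an interval within 2-fold), and 617 up and 523 down in M2 alone. At 4-fold these were 42, 58, 162 and 141 (21 and 15), 178 and 99, with 1311 up and 1342 down in M1 alone. With only the libraries of the groups compared, 13375 genes were tested in all 3 comparisons, 147 were up in M1 and down in M2 and 389 down in both. With library totals alone, 3907 genes were higher in M1 than in M0, 1560 were up and 3969 down in M1 alone, and Itgam and Itgb2 changed sign between M1 and M2, to log2 -0.0091 and -0.057. Leaving out 1 library at a time gave 12133 to 12597 genes between M1 and M2, and 215 to 234 and 226 to 240 genes in the opposite classes. Without WT M0 replicate 2 these classes held 224 and 237 genes, of which 199 and 217 were in the same class with all libraries. With the replicate block 12378 genes were called between M1 and M2 and the opposite classes held 231 and 240, and the block moved no count by over 1.5 times. Counts by DESeq2, limma-voom, RLE factors, no filter on low counts and the 15 WT libraries alone stayed within 1.5 times.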

Other observations

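Among called genes averaging at least 0 on the log2 CPM scale, predicted models and annotated pseudogenes left out, some of the 10 with the highest and the 10 with the lowest ratio of M1 over M2 lay next to another gene with a large ratio in the same direction, and others did not. The nearest tested gene on either side was taken from the gene order of RefSeq, GRCm38.p6, and these neighbours were named after their values were seen. Heatr9 lay next to the chemokine gene Ccl5, which was at log2 10.00 in M1 over M2, and Cxcl9 next to Art3, which was at 8.30, while Sdad1 on its other side was at -1.73. Mgl2 lay next to the related lectin gene Clec10a, at -7.38, and Chil4 next to Chil3, at -8.53. Prm1 lay next to Tnp2, another sperm nuclear protein gene, at 4.98. The part of shared or misassigned reads in these values was not tested.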
